A study of Mus musculus with 44 samples.

Results

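Enpep encodes BP-1, a membrane-bound glutamyl aminopeptidase. Of the 43 Eµ-myc lymphomas in the series, the 10 with the highest and the 10 with the lowest Enpep level were compared for all other genes, which left 23 lymphomas outside both groups. The members were chosen by the log2 level of the Enpep probe set minus the lymphoma mean, taken separately for 2 array sets. The first array set holds the 36 lymphomas with title numbers up to that of D117, and the second the 7 lymphomas with higher numbers. The series held 44 arrays in all, 1 array per sample, and the remaining array was labelled spleen. Every sample came from an Eµ-myc mouse, whose Myc transgene is driven by the immunoglobulin heavy chain enhancer, so that all groups share the transgene and it is on mainly in B lineage cells. High and low lymphomas thus differ in no labelled genotype, treatment or time, and the labels state no age, sex or treatment. RNA came from frozen tumour tissue or from pellets of suspended cells, and which array followed which route is not stated. No label ties a lymphoma to an animal, so the p-values measure the spread between these samples.

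BP-1 removes acidic residues from the amino end of peptides and is known for the cleavage of angiotensin II. On mouse B lineage cells it marks late pro-B and pre-B cells, responds to the growth factor IL-7, and is lost as cells mature. Pre-B cells assemble the heavy chain with a surrogate light chain, built by Vpreb1 and Igll1, while the recombinase genes Rag1 and Rag2 act in V(D)J recombination. Mature B cells express MHC class II under the transactivator Ciita, and plasma cells expand their secretory pathway.

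Enpep itself chose the groups, so its values are given as a description. In the first array set, the 9 high lymphomas had log2 levels of 8.21 at the lowest, 9.01 at the median and 10.91 at the highest. The tenth, D143, is the only member from the second array set and stood at 9.70. The 10 low lymphomas lay between 3.31 and 3.68 with a median of 3.48, all below the median of all probe sets on their own array. The low end therefore sits in the background of the array. Of the 23 other lymphomas, 17 belonged to the first array set and ranged from 3.69 to 8.04 with a median of 4.24, and 13 of these 17 were also below their array median. The other 6, of the second set, ranged from 4.01 to 4.95, and were below their array median in 6 of 6 cases. At the upper limit, D64 entered with a centred level of 2.49 and D81 stayed out at 2.32. At the lower limit, D52 entered at 3.68 and D53 stayed out at 3.69, so the low group is a choice among lymphomas that the array hardly orders. The spleen had 5.30, below its array median.

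**Figure D1:**
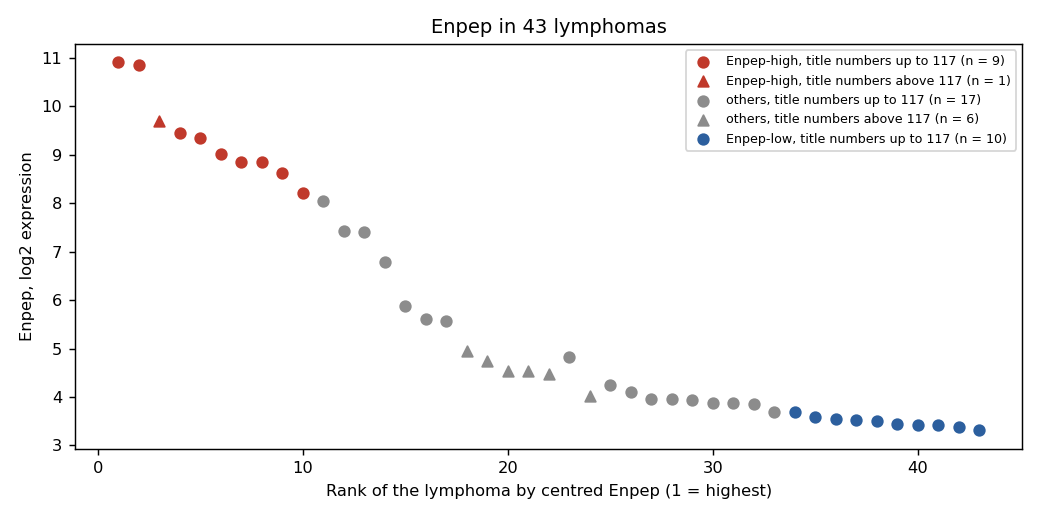
Enpep log2 level (vertical axis) of each lymphoma against its rank by centred Enpep (horizontal axis), coloured by group, with triangles for the second array set (title numbers above that of D117). The 10 high lymphomas lie at 8.21 or above, and the 10 low ones sit between 3.31 and 3.68 in a flat tail that goes on into the other lymphomas.

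The array sets differ in their medians over all probe sets, 6.21 to 6.45 in the first and 6.85 to 7.01 in the second. The comparison carried the set as a covariate, and because D143 is alone in its set among the 20, the covariate takes up its value. The differences below are thus in effect those of 9 high against 10 low lymphomas, and without D143 they gave 127 higher and 77 lower genes. Several lymphomas stood more than 3.5 median absolute deviations from the rest on marker scores of other cell types or of B cells. In the high group this was D59, with a stroma score 13.7 deviations up and a pan B cell score 3.94 down. In the low group D46, D52, D88 and D117 had high NK and cytotoxic scores, 3.69 to 5.07 deviations up, and D92 had a pan B cell score 9.59 deviations down. D92 is labelled lymphoma, yet Cd79a, a chain of the B cell receptor, was at 6.42 there, against 10.19 to 11.93 in the other low lymphomas. Among the others, D34, D35, D55, D78 and D163 stood apart.

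Among 7612 genes tested besides Enpep, 128 were higher in the Enpep-high lymphomas (1.68% of genes tested) and 77 were lower (1.01%) by limma at an adjusted p of 0.05, in all 2.69%. The higher genes held pre-B and progenitor genes (Sox4, Vpreb1, Cd93, Igll1, Alpl, Lef1, Myb), of which Sox4 and Vpreb1 had the largest differences, followed by the scaffold gene Akap12. The lower genes held MHC class II genes with their regulator (Ciita, H2-DMa, H2-DMb2, H2-Eb1) and signalling genes of B cells (Ptpn6, Lat2). They also held the plasma cell elongation factor gene Ell2 and secretory pathway genes (Derl3, Spcs2). The median difference was 0.87 log2 units among the higher and -1.06 among the lower genes, against 0.03 over all genes tested. Changes of more than 2-fold numbered 56 and 39, and of more than 4-fold 21 and 11. Without the array set in the fit 197 genes were higher and 64 lower, which made 75.5% of calls higher against 62.4% with it. Array weights, 14 against 14 lymphomas and a slope over all 43 gave more even splits, with 54.3%, 51.6% and 52.4% of calls higher. Another 13 lymphomas of the first array set had Enpep below their array median, and these did not always resemble the low group. Akap12 had a median of 10.77 there, against 10.93 in the high and 7.17 in the low lymphomas. For Ell2 the medians were 5.94, 4.59 and 9.39 in the same order. Vpreb1 was nearer the low group, with 6.30, 8.84 and 5.83. The 10 high against all 33 others, a fit added after seeing the data, gave 1 higher and 3 lower genes by limma.

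The number of calls rested on single lymphomas. The called genes kept their direction, but they were chosen for their difference in these same lymphomas. Kept signs are therefore a description and no separate support. Leaving out D59 gave 474 higher and 333 lower genes, leaving out D58 gave 322 and 260, and leaving out D63 gave 269 and 198. Leaving out D92 moved the lower count to 125. The higher count fell to 61 without D46 or D62, 71 without D64, 72 without D52 or D88, 77 without D57 and 84 without D98. The lower count fell to 28 without D46, 35 without D62, 39 without D52, 41 without D57, 44 without D64 or D83, 45 without D88, 47 without D98, 48 without D56, 49 without D72 and 50 without D43. Of the 77 genes named here or in the closing section that passed, 49 stayed past limma in each of the 20 runs that left out 1 lymphoma, among them Sox4, Vpreb1, Igll1, Cd93, Alpl, Lef1, Myb, Elovl6, Dpp4, Ciita, H2-DMa, Ptpn6, Lat2, Ell2 and Spcs2. The others passed in 4 to 18 of the runs, and those counts are given with most of these genes below. Without all 6 lymphomas of both groups that stood apart, 9 high and 5 low remained and 0 genes passed limma, with 1042 at an unadjusted p under 0.05 against 1727 in all 20. In that fit 128 of the 128 higher and 77 of the 77 lower genes kept their sign, with medians of 0.68 and -0.87.

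**Figure D2:**
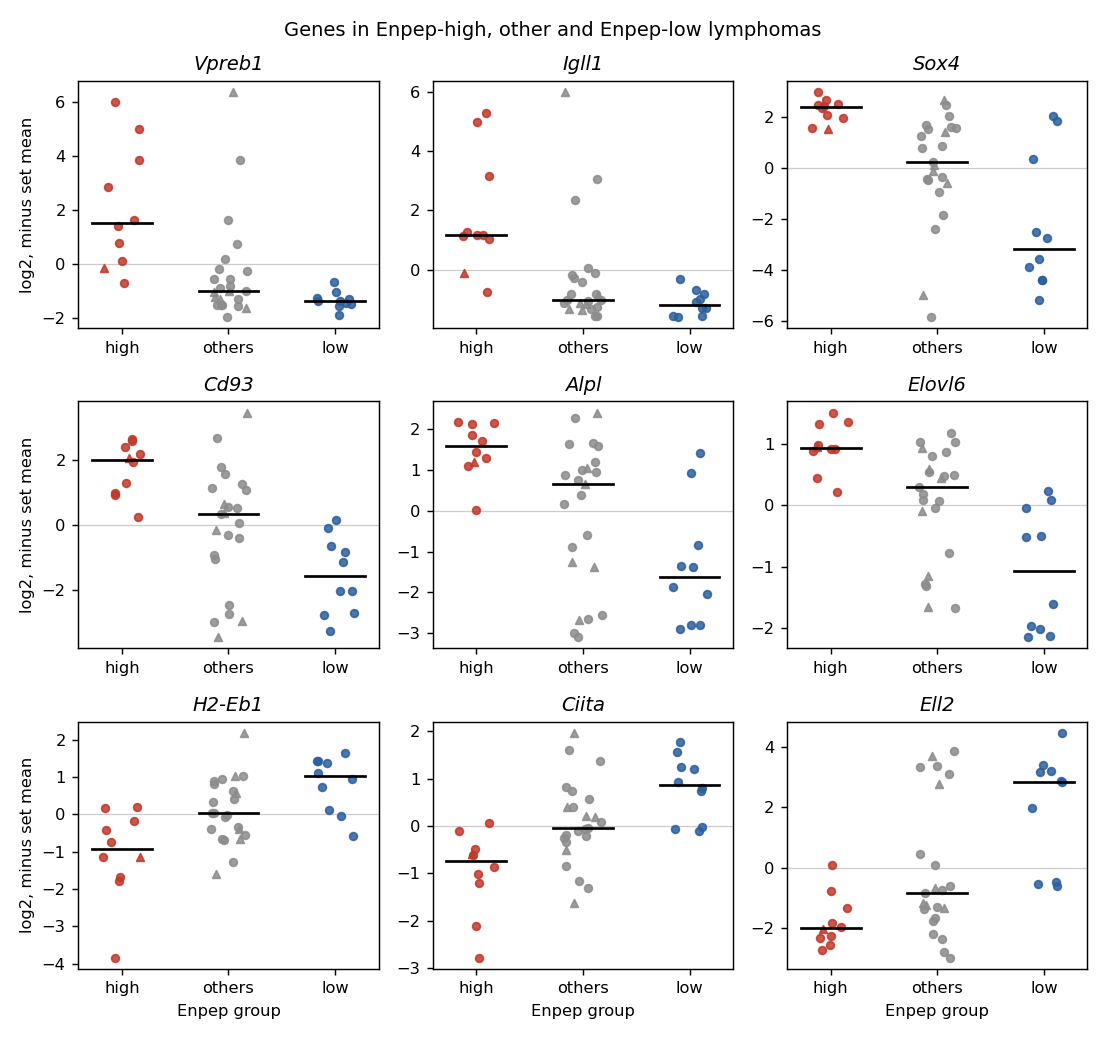
Log2 level minus the lymphoma mean of the array set (vertical axis) of 9 genes, 1 point per lymphoma by Enpep group, with the group median as a bar and triangles for the second array set. Vpreb1, Igll1, Sox4, Cd93, Alpl and Elovl6 sit higher and H2-Eb1, Ciita and Ell2 lower in the high group, and single lymphomas cross, as D58 and D63 do for Sox4 at 10.70 and 10.88 log2 units.

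Both classical chains of the surrogate light chain were higher in the Enpep-high lymphomas. Vpreb1, its variable-like chain, was at 6.50, 8.84 and 13.19 (lowest, median and highest) in the 9 high lymphomas and at 5.29, 5.83 and 6.51 in the low ones. Of the 9 high lymphomas 8 lay above every low one, and only D98, at 6.50, did not. The difference was 3.66 ± 0.67 log2 units (SE; limma adjusted p = 0.00855). Of the low lymphomas all but D86 lay below the median of their array, near background, so no fold is given. Igll1, the lambda5 chain that pairs with it, was at 6.45, 8.39 and 12.50 against 5.62, 6.02 and 6.91, a difference of 3.17 ± 0.60 (SE; limma adjusted p = 0.00916). Again 8 of 9 high lymphomas lay above all low ones, and D98 was the exception. The low median of Igll1 was also below the array medians. A second Igll1 probe set, with a lower mean level, gave -0.17. Vpreb3, which binds newly made chains inside the cell, was at 9.13 to 11.43 in the high and 5.20 to 10.71 in the low lymphomas, and its difference of 2.36 ± 0.71 (SE) did not pass (limma adjusted p = 0.0697). Over all genes tested 1.68% were higher and 1.01% lower, which is the background for the counts of this and every later list. Of the 5 genes of this list that were tested, 2 were higher and 0 lower, and the median difference was 2.36. That median was 1.60 without the lymphomas that stood apart. It was 2.46 with marker scores of other cell types (T cells, macrophages, neutrophils and stroma) as covariates, and 0 of the 5 passed in either fit.

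The promoters of Vpreb1 and Igll1 are shown because both genes passed the test together and lie near each other on chromosome 16. Vpreb1 is at chr16:16869206-16869505 and Igll1 at chr16:16863936-16864235, both on the minus strand of GRCm38.p6 in RefSeq, each reaching from upstream of the transcription start to shortly after it. Capitals mark letters of motifs searched on both strands: CCCNNGGG, the core of the EBF1 site, the E-boxes CAGCTG and CACCTG, which E2A proteins read, and the E-box CACGTG, which MYC reads.
Vpreb1: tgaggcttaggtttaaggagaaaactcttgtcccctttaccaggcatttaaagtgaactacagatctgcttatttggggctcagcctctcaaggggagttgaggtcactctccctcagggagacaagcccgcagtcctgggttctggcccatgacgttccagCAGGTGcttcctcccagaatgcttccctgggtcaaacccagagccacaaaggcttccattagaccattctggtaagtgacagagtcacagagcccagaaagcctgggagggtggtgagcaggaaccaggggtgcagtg
Igll1: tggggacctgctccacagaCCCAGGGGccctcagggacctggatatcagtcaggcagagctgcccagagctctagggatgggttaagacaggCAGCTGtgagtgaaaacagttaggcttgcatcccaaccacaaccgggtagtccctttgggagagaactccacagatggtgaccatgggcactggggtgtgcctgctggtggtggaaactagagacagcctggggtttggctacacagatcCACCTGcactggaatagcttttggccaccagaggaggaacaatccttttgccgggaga
Counted from the start, Vpreb1 held 1 CACCTG, at -88 on the reverse strand. Igll1 held CCCNNGGG at -231, CAGCTG at -158 and CACCTG at -8, and none of these matches overlaps another. Of 32851 promoters in the table, 20.2% held CACCTG, 16.3% CAGCTG, 13.7% CCCNNGGG and 7.15% CACGTG, so each match is common, and none was tested for binding here.

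The recombinase genes Rag1 and Rag2 did not pass the test. Rag1 was at 3.75, 7.09 and 11.32 in the 9 high lymphomas and at 3.68, 4.08 and 7.74 in the low ones. Only 4 of the 9 lay above every low lymphoma, and D59 had Rag1 at 3.75 beside Vpreb1 at 12.20. The Rag1 difference of 2.60 ± 0.89 (SE) did not pass (limma adjusted p = 0.0962), nor did that of Rag2, at 1.51 ± 0.49 (adjusted p = 0.0818). Of 7 V(D)J recombination genes tested, 1 was higher and 0 lower, with a median of 0.40. The gene that passed was Xrcc6, the Ku70 end-joining subunit, higher by 1.11 ± 0.29 (SE; limma adjusted p = 0.0469). Xrcc6 passed in 4 of the 20 runs that left out 1 lymphoma (those of D58, D59, D63 and D143), and without D59 the list had 3 higher genes. Dntt, the polymerase that adds bases at V(D)J joints, did not pass the filter on low values.

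**Figure D3:**
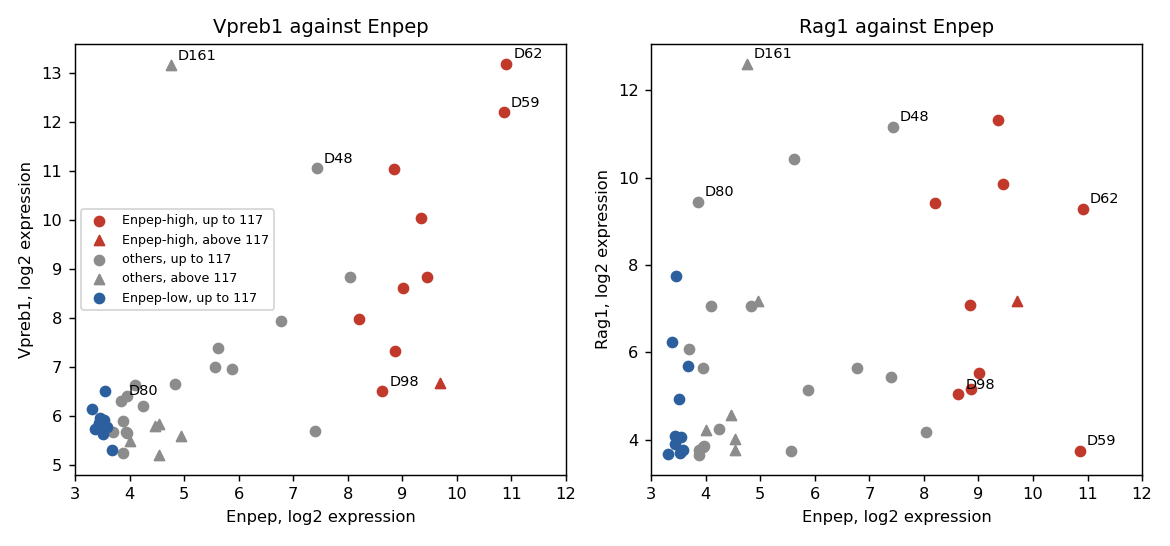
Log2 level of Vpreb1 (left) and of Rag1 (right) against that of Enpep, 1 point per lymphoma, coloured by Enpep group, with triangles for the second array set (title numbers above that of D117). Most high lymphomas have raised Vpreb1, while their Rag1 spans 3.75 (D59) to 11.32 (D57), and D161 and D48 have high values of both genes outside the high group.

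Transcription factors of early progenitors held 3 higher and 0 lower genes of 9 tested, against 1.68% and 1.01% of all genes. Their median was 1.09. Sox4, a factor needed for pro-B cell development, was at 10.42, 11.26 and 11.81 in the high lymphomas and at 3.68, 5.68 and 10.88 in the low ones. The high lymphomas were tightly grouped and 7 of 9 lay above every low one. The low lymphomas were not uniform, since D58 and D63 had 10.70 and 10.88 and D92 had 9.20. D46, D52, D83, D86, D88 and D89 lay below the median of their array, near background, so the size of the difference is uncertain. The difference was 4.58 ± 0.84 (SE; limma adjusted p = 0.00855), the largest among the genes tested, and the other Sox4 probe sets, with lower mean levels, gave 0.52 to 3.49. Lef1, a factor of the WNT pathway expressed in pro-B and pre-B cells, was higher by 1.95 ± 0.39 (SE; limma adjusted p = 0.0111), with 6 of 9 high lymphomas above all low ones. In all low lymphomas but D46 Lef1 was below the median of the array, near background. Myb, which is high in haematopoietic progenitors, was higher by 1.70 ± 0.34 (SE; limma adjusted p = 0.0113). Gfi1 (1.31 ± 0.43), Id3 (1.09 ± 0.37) and Id2 (-1.66 ± 0.56) did not pass. Without D59, 5 genes of this list were higher and 1 lower, and without D58 or D63 also 1 was lower. With the other-cell scores as covariates Sox4 fell to 1.11 while Lef1 stayed at 1.95, and neither passed.

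Among surface genes of immature B cells 2 of 8 tested were higher and 0 lower, with a median of 0.44. Cd93, known as the AA4.1 antigen that separates immature from mature B cells, was at 8.13, 9.81 and 10.55 in the high lymphomas and at 4.60, 6.29 and 8.03 in the low ones. All 9 high lymphomas lay above all 10 low ones. The difference was 3.24 ± 0.45 (SE; limma adjusted p = 0.00434), and a second probe set gave 0.46. D143, at 10.41, was second of the 7 lymphomas of the second array set. Alpl, the tissue-nonspecific alkaline phosphatase, was at 7.48, 9.18 and 9.64 against 4.54, 5.82 and 8.87. It differed by 2.91 ± 0.51 (SE; limma adjusted p = 0.00741). The low median of Alpl was below the array medians, so the size is uncertain. The fetal RNA-binding protein gene Igf2bp3 was higher by 2.40 ± 0.48 (SE), the scaffold gene Akap12 by 3.28 ± 0.59 and the galectin gene Lgals9 by 2.66 ± 0.49.

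Of 15 genes of growth factor receptors and the IL-7 pathway, 0 were higher and 0 lower, with a median of -0.25. Il7r, the receptor chain through which IL-7 acts, was at 7.56, 10.06 and 10.88 in the high lymphomas and at 7.15, 7.96 and 10.56 in the low ones. The groups overlapped, with 3 of 9 high lymphomas above every low one, and the difference of 1.51 ± 0.51 (SE) did not pass (limma adjusted p = 0.0933). Socs2, a feedback inhibitor of cytokine receptors, differed by 1.98 ± 0.68 and did not pass either. Kit, the stem cell factor receptor, did not pass the filter on low values.

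Of 17 transcription factors of the B lineage tested, 1 was higher and 0 lower, with a median of 0.12. Tcf3, the E2A gene, was higher by 0.98 ± 0.24 (SE; limma adjusted p = 0.0327), at 10.06 to 11.75 against 9.45 to 11.23. It passed in 9 of the 20 runs, all but those without D43, D46, D52, D56, D57, D62, D64, D72, D83, D88 or D98. Ebf1 differed by 1.37 ± 0.57 and did not pass (adjusted p = 0.165). Its level in D92 was 3.30 beside a median of 8.34 over the low lymphomas.

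Genes that act below the B cell receptor contained 3 lower genes of 15 tested and 0 higher ones, with a median of -0.13. Ptpn6, the SHP-1 phosphatase that dampens receptor signals, was at 8.46, 9.20 and 10.05 in the high lymphomas and at 9.57, 10.46 and 11.39 in the low ones. Of the 9 high lymphomas 8 lay below every low one. The difference was -1.17 ± 0.22 (SE; limma adjusted p = 0.00904). Lat2, an adaptor of B and myeloid cells (-2.11 ± 0.43), and Bcl10, which links the receptor to NF-kB (-0.57 ± 0.14), were also lower. Bcl10 passed in 8 of the 20 runs that left out 1 lymphoma. Plcg2 (-0.44 ± 0.14) and the factor Pou2f2 (-1.04 ± 0.31) did not pass. The heavy chain gene Ighm differed by 0.96 ± 0.49 (adjusted p = 0.249) at the probe set used, and its other probe sets ranged from -1.37 to 1.06, so the array gives no single direction for it. The number of lower genes of this list was 5 without D92 and 2 in several of the other runs.

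MHC class II had the lowest median of the lists of B cell genes. All 8 genes tested had negative differences, from -2.16 to -1.03 with a median of -1.62, and 4 of them passed as lower. Over all genes tested, 4234 of 7612 differences were positive and 1.01% passed as lower. Ciita, the master regulator of these genes, was at 4.26, 6.18 and 7.11 in the high lymphomas and at 6.95, 7.90 and 8.82 in the low ones. Of the 9 high lymphomas 8 lay below every low one. The difference was -1.82 ± 0.35 (SE; limma adjusted p = 0.00916). The high median of Ciita was below the array medians of that group, so the size is uncertain. H2-Eb1, a chain of the surface I-E molecule, was at 7.31, 10.41 and 11.36 against 10.58, 12.19 and 12.80. It differed by -1.87 ± 0.44 (SE; limma adjusted p = 0.027). These groups overlapped, and the lowest value of the high group belonged to D62, which had its highest Enpep. H2-DMa (-1.88 ± 0.41) and H2-DMb2 (-2.16 ± 0.51), which load peptides onto class II, were lower too. The chains H2-Aa (-1.40 ± 0.38, adjusted p = 0.0502) and Cd74 (-1.36 ± 0.40, adjusted p = 0.0654) did not pass. H2-Eb1 did not pass without D46, D52, D56, D57, D64 or D88, nor H2-DMb2 without D46, D52, D56, D57, D62 or D88. The count of lower class II genes was 8 without D58, 7 without D59 or D86, 6 without D63 and 2 without D46, D52, D56, D57 or D88. Their median was -1.23 without the lymphomas that stood apart and -0.81 with the other-cell scores as covariates, with 0 genes past the test in each. Class II is also made by macrophages, whose score is given below, and their part in the difference was not tested.

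The promoter of H2-Eb1, at chr17:34305617-34305916 on the plus strand of GRCm38.p6 in RefSeq, is shown because class II promoters carry a CCAAT element in their conserved X and Y box region. Capitals mark CCAAT on either strand and the E-box CAGCTG.
H2-Eb1: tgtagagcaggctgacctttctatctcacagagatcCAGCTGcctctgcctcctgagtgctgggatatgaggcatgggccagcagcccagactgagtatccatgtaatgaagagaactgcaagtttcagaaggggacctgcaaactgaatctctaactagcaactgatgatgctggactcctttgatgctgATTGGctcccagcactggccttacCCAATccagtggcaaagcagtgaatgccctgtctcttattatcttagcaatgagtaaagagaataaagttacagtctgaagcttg
It held CCAAT at -59 and -35 from the start, the first on the reverse strand, and CAGCTG at -214. CCAAT was found in 37.4% of the promoters in the table.

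Surface genes of mature B cells were lower in 3 and higher in 0 of 17 genes tested, with a median of -0.75. Cd40, the receptor for T cell help, was at 5.94, 6.19 and 6.99 in the high lymphomas and at 6.46, 7.49 and 8.74 in the low ones. It differed by -1.25 ± 0.29 (SE; limma adjusted p = 0.027). The high median of Cd40 was below the array medians of that group, so the size is uncertain. The integrin gene Itgb7 (-1.82 ± 0.45) and the tetraspanin gene Cd53 (-0.81 ± 0.21) were lower too. Cd40 passed in 12 of the 20 runs, Itgb7 in 11 and Cd53 in 6. The homing receptor gene Cxcr5 differed by -1.92 ± 0.57 and did not pass (adjusted p = 0.0693). The count of lower genes was 5 without D58, D63 or D92, 1 without D56, D64 or D83, and 0 without D46, D52, D57, D62, D72, D88 or D98. The germinal centre list had 5 genes tested, of which 0 passed, with a median of -1.50. Its score separated D46, D88 and D117 (2.23, 3.47 and 3.97) from the other low lymphomas, which lay between -1.42 and 0.77. With this score as a covariate 3 genes were higher and 1 lower in the whole comparison. All 205 genes, which were chosen in these same lymphomas, kept their sign with medians of 0.71 and -0.88.

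Plasma cell genes were lower in 2 and higher in 0 of 9 cases, with a median of -1.23. Ell2, the elongation factor that directs secretory immunoglobulin mRNA, was at 3.82, 4.59 and 6.65 in the high lymphomas and at 5.93, 9.39 and 11.00 in the low ones. Of the 9 high lymphomas 8 lay below every low one. The difference was -3.76 ± 0.64 (SE; limma adjusted p = 0.00628), and the spleen had 11.51. All high lymphomas but D59 lay below the median of their array, near background, so the size of the difference is uncertain. The low lymphomas were not uniform. D58, D63 and D86, at 5.93, 6.01 and 6.07, also lay below the median of their array, and the others were at 8.53 to 11.00. Derl3, which moves misfolded proteins out of the endoplasmic reticulum, differed by -1.70 ± 0.42 (SE; limma adjusted p = 0.034) and passed in 12 of the 20 runs. Xbp1 (-1.23 ± 0.36), Creld2 (-1.31 ± 0.36) and Jchain (-2.10 ± 0.93) did not pass. Outside the list, the signal peptidase gene Spcs2 (-0.58 ± 0.11) was lower, as were 5 genes of protein folding and translocation that were named after their values were seen. They were Serp1 (-0.86 ± 0.13), Hsp90b1 (-0.75 ± 0.16), Txndc5 (-1.42 ± 0.29), Hspa5 (-0.73 ± 0.18) and Pdia4 (-0.97 ± 0.25), all past limma. But Hspa5 passed in 6 and Pdia4 in 9 of the 20 runs that left out 1 lymphoma. No list of folding genes was counted as a whole, so the share of such genes that passed is not known. Leaving out D58, D59 or D63 gave 4 lower plasma cell genes, D92 gave 3, and D46, D57, D62, D64, D72, D83, D98 or D117 gave 1.

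**Figure D4:**
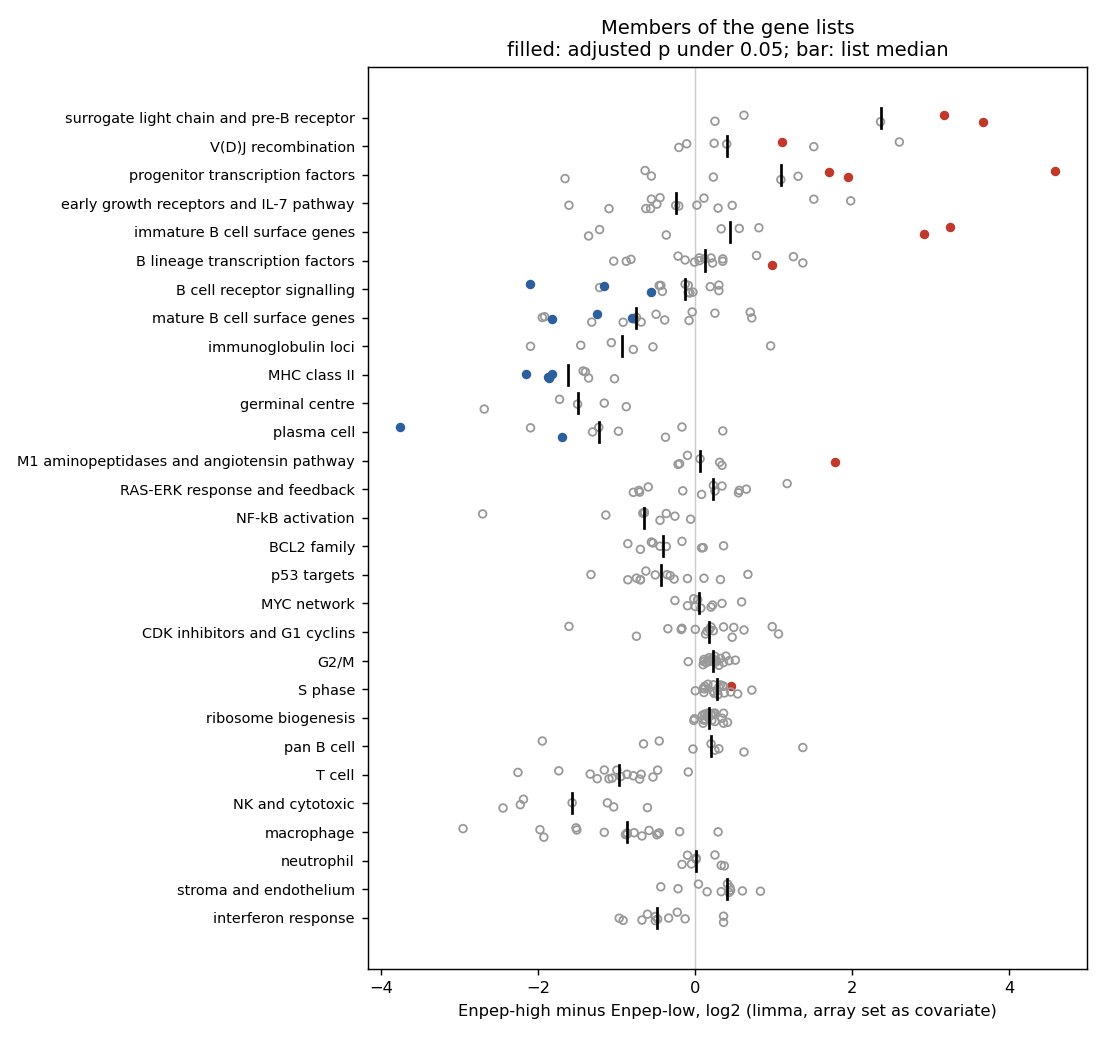
Difference between Enpep-high and Enpep-low lymphomas (log2, horizontal axis) of every tested member of the gene lists, with filled points for genes past limma and a bar at each list's median. Surrogate light chain genes lie to the right (median 2.36) and MHC class II genes to the left (median -1.62), while cell cycle and ribosome lists stay near 0.

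Of 7 M1 aminopeptidase and angiotensin pathway genes tested, 1 was higher and 0 lower, with a median of 0.06. Dpp4, the CD26 dipeptidase, which is a serine protease and no M1 enzyme, was at 8.20, 8.83 and 10.15 in the high lymphomas and at 6.37, 7.33 and 8.46 in the low ones, a difference of 1.78 ± 0.30 (SE; limma adjusted p = 0.00618). Of 9 high lymphomas 8 lay above every low one. Lta4h, another member of the M1 family, differed by 0.31 ± 0.10 and did not pass.

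Of the 6 genes on each side of Enpep on chromosome 3 in the RefSeq order, Elovl6 alone was tested. Elovl6 elongates long-chain fatty acids. It was at 9.23, 9.93 and 10.52 in the high lymphomas and at 6.86, 7.95 and 9.25 in the low ones, with 8 of 9 high lymphomas above every low one. The difference was 2.02 ± 0.34 (SE; limma adjusted p = 0.00618), or 4.04-fold, and D143 had the highest value, 10.55, of the 7 lymphomas of the second array set. The neighbour Egf was on the array and did not pass the filter on low values. The promoters of both genes are shown because they lie near each other on the chromosome. Enpep is at chr3:129332700-129332999 on the minus strand and Elovl6 at chr3:129532136-129532435 on the plus strand (GRCm38.p6, RefSeq), with the same motifs in capitals.
Enpep: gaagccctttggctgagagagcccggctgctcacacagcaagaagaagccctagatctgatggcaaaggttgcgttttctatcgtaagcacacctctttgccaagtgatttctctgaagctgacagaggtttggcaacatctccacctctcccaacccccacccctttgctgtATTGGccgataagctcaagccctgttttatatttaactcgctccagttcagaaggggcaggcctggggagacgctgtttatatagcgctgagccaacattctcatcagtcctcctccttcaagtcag
Elovl6: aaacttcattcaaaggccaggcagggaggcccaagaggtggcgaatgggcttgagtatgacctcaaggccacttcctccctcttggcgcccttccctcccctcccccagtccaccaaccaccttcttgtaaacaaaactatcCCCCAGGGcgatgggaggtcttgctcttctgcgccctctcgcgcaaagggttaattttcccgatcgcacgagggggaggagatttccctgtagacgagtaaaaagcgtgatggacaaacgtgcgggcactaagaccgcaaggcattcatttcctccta
Enpep held CCAAT at -77 on the reverse strand and no other motif searched. Elovl6 held CCCNNGGG at -108.

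Of the lists of growth and division, 1 gene passed the test. Myc, in which the probes cannot separate the transgene from the mouse gene, was at 9.89, 10.51 and 11.44 in the high lymphomas and at 9.15, 10.19 and 11.30 in the low ones. The groups overlapped, and the difference of 0.34 ± 0.26 (SE) did not pass (limma adjusted p = 0.443). Cdkn2a, the p16Ink4a and p19Arf gene, ranged from 5.85 to 11.46 and from 4.46 to 10.31, and its difference was 1.06 ± 0.93 (adjusted p = 0.506). Of 20 S phase genes tested 1 was higher, Mcm7, a subunit of the replicative helicase, by 0.45 ± 0.11 (SE; limma adjusted p = 0.0304), and it passed in 10 of the 20 runs. The S phase, G2/M and ribosome biogenesis lists had medians of 0.28, 0.22 and 0.17, with 19 of 20, 20 of 21 and 20 of 22 members positive. Apart from Mcm7 none of their members passed. Among all genes tested 4234 of 7612 differences were positive. The MYC network, p53 target, BCL2 family, RAS-ERK and NF-kB lists had 0 genes past the test, with medians of 0.05, -0.44, -0.41, 0.23 and -0.65.

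Markers of T cells, NK cells and macrophages had lower values in the Enpep-high lymphomas. In a bulk sample, fewer cells of a type and less RNA per cell cannot be told apart. Of 16 T cell genes tested, 16 had negative differences with a median of -0.97 and 0 passed. Of 7 NK and cytotoxic genes, 7 were negative with a median of -1.57 and 0 passed. Of 17 macrophage genes 16 were negative with a median of -0.87 and 0 passed. By comparison, 4234 of all 7612 genes tested had a positive difference. The T cell score ran from -1.07 to 0.96 in the high and from -0.94 to 1.96 in the low lymphomas, the NK score from -1.33 to 1.95 and from -0.79 to 3.19, and the macrophage score from -1.33 to 2.74 and from -0.97 to 2.23. Cd3g, a chain of the T cell receptor complex, was at a median of 5.37, under the array medians, in the high lymphomas and at 8.29 in the low ones. Gzmb, a granule protease of cytotoxic cells, had medians of 4.47 and 8.02, and Arg1, an arginase of macrophages, 4.34 and 7.91. The highest NK, macrophage and stroma scores of the high group all belonged to D59. Without D59, 8 macrophage, 4 NK and 1 T cell gene were lower. Without D58 the counts were 1, 3 and 4, and without D63 they were 2, 2 and 1. Leaving out D86, D92 or D72 gave 1 NK, 2 NK or 1 T cell gene. Without all lymphomas that stood apart, which were picked partly by these scores, the medians were smaller. They were -0.31 for T cell, -0.95 for NK and -0.63 for macrophage genes, and 0 passed. With the scores of other cell types as covariates 0 genes passed in the whole comparison, and 571 had an unadjusted p under 0.05. These scores were those of T cells, macrophages, neutrophils and stroma, and the NK and cytotoxic score was not among them. Of the called genes, which were chosen in these same lymphomas, 127 of the 128 higher and 76 of the 77 lower ones kept their sign. The medians of these genes were then 0.68 and -0.54, against 0.87 and -1.06. The part of these cells in the differences was not tested further.

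Groups did not overlap for 9 genes (0.118% of genes tested), all higher and none lower. Besides Cd93 they were the deubiquitinase gene Otub2 (2.18 ± 0.35), the catenin gene Arvcf (1.52 ± 0.23), the Polycomb gene Scmh1 (1.25 ± 0.24), the cytidine deaminase gene Apobec1 (1.04 ± 0.17), the tyrosine kinase gene Abl1 (1.01 ± 0.16), the ubiquinone synthesis gene Coq7 (0.83 ± 0.15), the ubiquitin-conjugating enzyme gene Ube2e3 (0.77 ± 0.15) and Gprasp1 (0.64 ± 0.14). Abl1 was at 8.86 to 9.31 in the high and 7.49 to 8.84 in the low lymphomas. The clock genes Arntl, which encodes the activator BMAL1, and Nr1d1, which encodes its repressor, were both higher, by 1.99 ± 0.37 and 1.20 ± 0.24. Arntl was at 7.04 to 9.60 in the high and at 4.65 to 7.57 in the low lymphomas.

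Other large differences fell outside the lists. Among higher genes were the phosphodiesterase gene Pde2a (2.54 ± 0.46), the NF-kB adaptor Tifa (2.56 ± 0.52), the potassium channel Kcnk1 (2.48 ± 0.66), the synaptic vesicle gene Cplx2 (2.35 ± 0.57), the reductase Ptgr1 (2.33 ± 0.60), the zinc finger factor Insm1 (2.31 ± 0.48) and the receptor substrate Eps8 (2.30 ± 0.54). Insm1 was at 4.37, 6.26 and 9.16 in the high lymphomas and at 3.78, 4.21 and 4.48 in the low ones, so that the low group sat at background. Lower genes included the cytoskeletal gene Plek (-2.87 ± 0.66), the adaptor Bcar3 (-2.45 ± 0.55), Rab30 (-2.38 ± 0.48), the NADPH oxidase subunit Ncf1 (-2.36 ± 0.55), the BMP receptor Bmpr1a (-2.30 ± 0.55), the cathepsin gene Ctsh (-2.15 ± 0.45), the calcium channel Ryr1 (-2.11 ± 0.42), the sialic acid hydroxylase Cmah (-1.89 ± 0.48), the lipase Abhd6 (-1.82 ± 0.45) and LOC664787 (-3.46 ± 0.59). Plek and Ncf1 are also high in myeloid cells. Several of these genes passed in only part of the 20 runs that left out 1 lymphoma. Kcnk1 passed in 5 of them, Ptgr1 in 7, Cplx2 in 11 and Eps8 in 13. Among the lower genes Bmpr1a passed in 8, Abhd6 in 9, Cmah in 10, Ncf1 in 15 and Plek in 18.

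The 23 other lymphomas were left between the groups by the same ranking of Enpep. Their levels of other genes did not enter the differences between the 20. They did take part in the choice of probe sets and in the filter on low values, which used all 43 lymphomas. Each gene was regressed on centred Enpep within them. Since 13 of 17 and 6 of 6 of these lymphomas had Enpep below their array median, the slopes rest mainly on the range set by the remaining 4, D48, D71, D81 and D85. By limma 0 of 7612 genes passed, with 690 at an unadjusted p under 0.05. Of the 128 higher genes, 116 (90.6%) had a positive slope, against 51.2% of all genes tested, and 24 of these had an unadjusted p under 0.05. Of the 77 lower genes, 72 (93.5%) had a negative slope, against 48.8%, and 26 had an unadjusted p under 0.05. The slopes were 0.73 log2 units per unit of Enpep for Vpreb1 and 0.68 for Igll1, -0.73 for Plek and -0.36 for Ciita. Genes are not independent of each other, so these shares are a description. D143 ranked first of 7 in 18 of the 128 higher genes (14.1%, against 14% of all genes) and last in 18 of the 77 lower ones (23.4%, against 7.05%). The share among higher genes is that of the background, and the share among lower genes is above it.

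**Figure D5:**
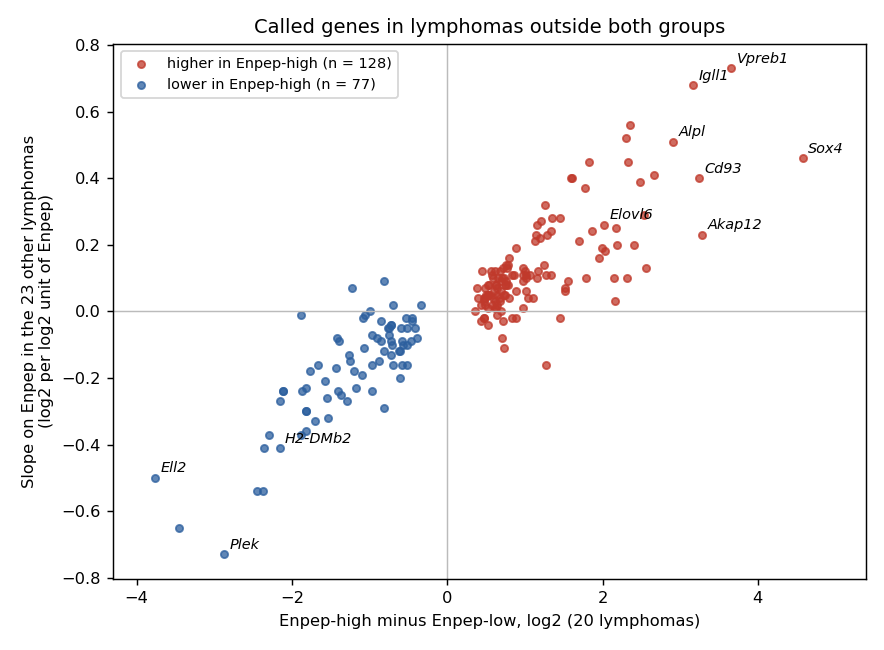
Slope on Enpep in the 23 other lymphomas (log2 per log2, vertical axis) against the difference between the 10 high and 10 low lymphomas (horizontal axis) for the 205 genes past limma. Of the 128 higher genes 116 have a slope above 0, and of the 77 lower genes 72 have one below 0.

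Enpep and the pre-B genes came apart in several lymphomas. D161 had Enpep at only 4.75 but Vpreb1 at 13.16, Igll1 at 13.46, Rag1 at 12.61 and Cd93 at 11.81, each the highest of the 7 lymphomas in its array set. D48, outside the high group with Enpep at 7.43, had Vpreb1 at 11.05 and Rag1 at 11.17. D80, with Enpep at 3.85, had Rag1 at 9.45. In the other direction D98 combined Enpep at 8.63 with Vpreb1 at 6.50 and Igll1 at 6.45. D143, of the second array set, combined Enpep at 9.70 with Vpreb1 at 6.66. Within that set D143 still ranked 2 of 7 for both Vpreb1 and Igll1, and the other 6 had a Vpreb1 median of 5.68. D62, with the highest Enpep, also had the highest Vpreb1 (13.19) and the lowest Ciita (4.26) and H2-Eb1 (7.31) of the high group.

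The genes whose level ran most closely with centred Enpep over the 43 lymphomas, by Pearson's r and given as a description, were Vpreb1 (0.70), Anks1 (0.69), Edaradd (0.68), Igll1 (0.68), Nr1d1 (0.66), Plscr3 (0.65), Abl1 (0.65), Impdh1 (0.64) and Zfp428 (0.64) among the 10 highest. In the other direction they were Ptpn6 (-0.74), Ciita (-0.69), Abcc1 (-0.69), Lat2 (-0.68), H2-DMb2 (-0.68), H2-DMa (-0.65), Spcs2 (-0.65), Stx7 (-0.63), H2-Eb1 (-0.63) and LOC664787 (-0.63). These arrays share the 20 lymphomas of the comparison above, so the order is not separate evidence. Edaradd, an adaptor of the ectodysplasin receptor, was at 6.42 to 7.81 in the high and 5.10 to 6.81 in the low lymphomas. The drug and leukotriene exporter Abcc1 ran the other way, at 5.43 to 8.17 in the high and 7.58 to 9.87 in the low lymphomas. The value of 9.87 was that of D92. Abcc1 passed limma in 6 and Impdh1 in 10 of the 20 runs that left out 1 lymphoma.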

How the data were processed

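Total RNA of each sample was hybridised to 1 Affymetrix mouse array, and the deposited table holds normalised log2 signals, 1 for each probe set and array. RMA and the affy package are named in the submitters' processing notes, without versions. The labels do not say whether RMA was run on all arrays together. Arrays have no read depth, so the number of arrays limits precision.

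Of 22690 probe sets, 64 were controls, 691 had several gene symbols and 1555 none, and 20380 with 1 symbol were used, 20351 of them matched to GRCm38.p6 by identifier. Each of 12393 genes was represented by its probe set with the highest mean over the lymphomas. A gene was tested if at least 5 of 43 lymphomas lay above the median of their own array, which left 7612 besides Enpep. The 10 highest and 10 lowest lymphomas were compared with limma 3.58.1 in R 4.3.3 (eBayes with an intensity trend, array set as covariate, two-sided, Benjamini-Hochberg at 0.05, 17 residual degrees of freedom). The same model gave slopes on centred Enpep in the 23 others. A score is the mean of a list's tested genes minus the lymphoma mean of the array set.

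The members and the gene lists were chosen with earlier results of these data known. Named genes were the 15 largest differences each way, up to 4 members per list, a set of stage genes, the 10 highest and lowest correlations with Enpep and 6 neighbours on each side, besides a few named after their values were seen. In simulated data of 7612 genes with this comparison's design, changes of 1, 2 and 4 residual SD were called in 0%, 71.5% and 100% of genes, and 7.14% (2 SD) and 4.31% (4 SD) of the calls fell on unchanged genes. The closest pair of arrays (D69 and D63, r = 0.9914) had 4 identical probe sets. The largest number in any pair was 25, so no array was counted as a copy of another. These counts cannot tell whether any arrays share an animal or a tumour. The 3' minus 5' difference of control probes was 0.10 to 0.71 in the high and 0.12 to 0.93 in the low lymphomas, and the median title number was 62 and 84.5. Alternatives concerned the filter, probe set choice, scaling, eBayes settings, array weights, group size, covariates and leaving out lymphomas. Promoters came from RefSeq. Some genes are not reported here.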

Additional observations from a re-analysis of the deposited data

Results flagged for a closer look

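Among 214 tests of a named gene in a group of 10 lymphomas, 31 (14.5%) had 1 lymphoma far from the others, by Dixon's test at 95%, where chance flags about 1 in 20. Values are log2 levels minus the lymphoma mean of the array set.

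D59, the high lymphoma with the strongest stroma score, was the single one in most cases within the high group. It stood at 0.02 for Alpl, -1.60 for Cplx2, -1.68 for Cd79a, -0.71 for Tcf3 and -0.19 for Mcm7, below the other high lymphomas. It stood above them at 1.08 for Plek, 1.85 for Bmpr1a, 2.08 for Id2, 2.26 for Basp1, 0.76 for Xbp1, 2.06 for Gzmb and 2.16 for Cd83.

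D62, with the highest Enpep, was alone at -3.84 for H2-Eb1, -3.30 for H2-Aa and -3.40 for Cd74, below the high group in class II genes. It stood at 1.49 for Anks1, above the group. In the low group D92 was alone at -4.63 for Cd79a, -5.29 for Ebf1 and -2.78 for Arntl, and at 2.03 for the exporter gene Abcc1. Both B cell genes were thus low in that lymphoma.

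The remaining cases were spread over several lymphomas. In the high group they were Cd53 in D143 (-1.28), Creld2 in D56 (0.17), Lta4h in D56 (0.52), Pdia4 in D43 (-1.09) and Serp1 in D43 (0.21). In the low group they were Kcnk1 in D58 (2.68), Impdh1 in D89 (-0.95), Gprasp1 in D52 (-0.97), Txndc5 in D88 (2.52), Swap70 in D92 (-2.10) and Smarcd1 in D88 (-0.63).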

How the results depend on the processing

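Of the 205 calls, all but 1 higher and 1 lower gene kept their sign under the 41 alternatives wherever they were tested. The exceptions came with other-cell scores as covariates. The called genes were chosen in these same lymphomas, so their kept signs are a description. None of the 77 named genes that passed did so under every alternative. Counts near those reported (128 higher, 77 lower) came from a looser filter, mean probe sets, equal medians, quantile normalisation, no trend, robust eBayes and the first array set alone. Other settings gave 82 higher genes (no filter), 197 (no array set), 733 and 617 (array weights), 1 and 0 (7 against 7), 569 and 534 (14 against 14), 204 and 185 (slope over 43), 0 and 0 (without lymphomas that stood apart, or with other-cell scores), 3 and 1 (germinal centre score), 63 and 32 (title number as covariate) and 128 lower genes (pan B cell score). Added after seeing the data, 10 against the other 33 gave 1 and 3, and 10 against 29 with Enpep below the array median gave 66 higher genes. Leaving out 1 lymphoma gave 61 to 474 higher and 28 to 333 lower genes. The 7 against 7 groups did not overlap for 23 genes, against 9. Signs turned for Ighm (-0.37, mean of probe sets), Myc (-0.12 without lymphomas that stood apart, -0.36 with other-cell scores, -0.24 with the germinal centre score) and, with other-cell scores, Cxcr5 (0.13), Mef2b (0.70), Basp1 (0.26), Gzmb (0.13) and Cd83 (0.54), none of which had passed. Fits with fewer lymphomas have fewer samples, and otherwise the cause was not tested. Levels near background, such as Enpep in the low group, have no reliable order. No paired analysis was possible because the lymphoma numbers name single samples and are not shared between groups.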

Other observations

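Further genes that passed limma between the Enpep-high and Enpep-low lymphomas lay outside the lists and were chosen after their values were seen. Genes of chromatin and DNA methylation were among the higher ones. The de novo methyltransferase gene Dnmt3a was at 8.74, 9.21 and 9.68 (lowest, median and highest) in the 9 high lymphomas of the first array set and at 7.50, 8.31 and 8.80 in the low ones. It differed by 0.98 ± 0.19 (SE; limma adjusted p = 0.00987). Of the 9 high lymphomas 8 lay above every low one. The other probe sets of Dnmt3a gave 1.09, 0.55, 0.10 and -0.06, so not all show it. Uhrf1, which guides maintenance methylation, differed by 0.76 ± 0.20, and the SWI/SNF subunit genes Smarca4 and Smarcd1 by 0.97 ± 0.20 and 0.50 ± 0.13. Dnmt3a and Smarca4 passed in each of the 20 runs that left out 1 lymphoma, Smarcd1 in 7 and Uhrf1 in 4. Hmgb3, a chromatin protein of haematopoietic progenitors, differed by 1.21 ± 0.24 and the growth kinase gene Mtor by 1.15 ± 0.24, with 0.16 at a second, dimmer Mtor probe set.

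Among the lower genes, Ifi30, a lysosomal reductase that prepares antigens for class II, was at 9.76, 10.30 and 11.40 in the high and at 10.55, 11.60 and 11.99 in the low lymphomas, and it differed by -1.09 ± 0.22 (limma adjusted p = 0.0126). The interleukin 4 receptor gene Il4ra differed by -1.06 ± 0.24, with 6 of 9 high lymphomas below every low one. The other Il4ra probe sets, also dimmer, gave -0.46 and -0.09. The leukocyte integrin gene Itgb2 (-1.41 ± 0.36) and the B cell switching factor gene Swap70 (-1.54 ± 0.39) were lower too. Each of these last passed in 7 of the 20 runs, and Il4ra in 17. Itgb2 is also expressed by T cells, NK cells and macrophages, whose scores were higher at the median in the low group. In the 23 other lymphomas the slopes on Enpep were 0.11 for Dnmt3a, 0.27 for Hmgb3 and 0.26 for Mtor, but only -0.02 for Ifi30 and -0.01 for Il4ra.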
